A study of Mus musculus with 6 samples.

Results

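The nuclear genes for subunits of the mitochondrial respiratory chain and ATP synthase were examined as 5 complexes in differentiating mouse osteoblasts treated with a kinase inhibitor. Members were chosen by a rule on gene symbols, with earlier results of these data known. The rule took the Nduf subunit series for complex I, Sdha to Sdhd for complex II and Uqcr symbols for complex III. It took Cox4 to Cox8 symbols for complex IV and Atp5 symbols for complex V. The rule found 80 genes of 22180 measured, 33 in complex I, 4 in complex II, 8 in complex III, 17 in complex IV and 18 in complex V. Of these, 78 are protein coding and 2, Uqcrh-ps1 and Atp5c1-ps, are pseudogenes. A further 10 probe sets matched the rule but carried several symbols and were not analysed here, which left out 9 symbols of the rule altogether.

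The respiratory chain passes electrons from NADH, at complex I, and succinate, at complex II, through ubiquinone to complex III, then through cytochrome c to complex IV, which reduces oxygen to water. Complexes I, III and IV pump protons out of the mitochondrial matrix, and complex V, the ATP synthase, uses their return to make ATP. Nearly all subunits are encoded in the nucleus and a small core set in the mitochondrial genome, and differentiating osteoblasts use both glycolysis and respiration for the ATP that matrix production needs.

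The samples were MC3T3-E1 cells, a pre-osteoblast line from mouse calvaria, grown to confluence, then harvested at day 14 of osteoblast differentiation in medium with ascorbic acid (50 µg/ml) and β-glycerophosphate (10 mM). In 3 samples the medium also held 1 µM NU7441, which blocks the DNA repair kinase DNA-PK, and in 3 samples it held the vehicle DMSO. The 6 samples are of 1 cell line at 1 dose and 1 time, and no label tells whether the replicates are separate cultures, so the p-values rest on a spread that may be technical. Expression was read on Affymetrix arrays, and every level below is a log2 array signal, with differences as NU7441 minus DMSO.

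Array medians lay between 6.38 and 6.42 and arrays correlated with each other at 0.989 to 0.993 over all probe sets. The osteoblast genes Col1a1, at 13.52 in NU7441 and 13.47 in DMSO, and Sparc, at 12.87 and 12.84 in the same order of groups, were among the bright signals. Ptprc, a marker of blood cells, was at 4.59 in both, under the lower quartile of each array (5.11 to 5.16). The other macrophage markers were above that quartile. Adgre1, Itgam and Csf1r were at 5.35, 5.40 and 6.24 in NU7441 and at 5.39, 5.46 and 6.24 in DMSO. Cd68 was above the array medians, at 7.69 in NU7441 and 7.92 in DMSO. Of the osteoblast markers, Alpl, Bglap, Ibsp and Sp7 differed by 0.52 to 0.64 and the rest by only 0.028 to 0.044. All 7 were higher with NU7441, where 48.7% of all genes were lower. Their median difference was 0.52 (0.40 without DMSO 2), with none past the test over all genes. An alternative limma fit, which paired the samples by number and used a robust prior with an intensity trend, called 3 of them, with limma adjusted p of 0.00755 for Ibsp, 0.00823 for Alpl and 0.0172 for Sp7. Of markers of other cells, 2 of 5 for macrophages, 1 of 4 for endothelium, 4 of 5 for skeletal muscle and 4 of 5 for adipocytes were higher, and none passed, with the same counts without DMSO 2 except 1 of 5 for macrophages. The adipocyte marker Fabp4 had a log2 difference of -0.99 (SE 0.19) and was 1 of 5 adipocyte markers at an unadjusted limma p under 0.05. That paired fit called it too (limma adjusted p 0.0211). The log2 of the summed signal of those 5 markers was between 7.83 and 8.03 in NU7441 and between 8.01 and 8.09 in DMSO, and their part in the results was not tested. The array DMSO 2 stood apart in genes of endoplasmic reticulum stress: against each gene's mean over the 6 arrays, the 13 such genes had a median of 0.81 in DMSO 2, whereas the remaining 5 arrays had medians from -0.32 to 0.05. All 13 had a negative difference, with a median of -0.38 and 1 at an unadjusted limma p under 0.05, and none passed the adjusted test. Without DMSO 2, 9 of the 13 were lower and 4 higher (median -0.077). For the members and lists, splits and medians are given below with and without this array.

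None of the 80 members passed the test of NU7441 against DMSO. In limma, with Benjamini-Hochberg adjustment over all 22180 genes, 0 members and 0 genes in all had an adjusted p under 0.05 (a background of 0.0% called), the smallest adjusted p of a member being 0.698. At an unadjusted p under 0.05 there were 3 members, Ndufb11, Ndufa1 and Uqcrq, 3.75% of the members beside 6.79% of all genes. The groups did not overlap in 6 members, or 7.50%, beside 12.8% of all genes. Both shares were under the background in this fit. In the paired limma fit named above, 100 genes, or 0.451% of all, were called, and 0 of the members were among them. There 11 members, or 13.75%, had an unadjusted p under 0.05, beside 11.2% of all genes.

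The estimates were narrow for most members. The 95% interval of the log2 difference stayed within 1.5-fold in either direction for 77 of 80 members, and within 1.2-fold for 45. These were 96.25% and 56.25% of the members, beside 92.5% and 36.4% of all genes. The exceptions at 1.5-fold were the muscle isoforms Cox7a1 and Cox6a2 and the pseudogene Atp5c1-ps, whose intervals reached 2.42-fold, 2.18-fold and 1.96-fold. All 33 members of complex I, all 4 of complex II and all 8 of complex III had intervals inside 1.5-fold. These bounds concern array signal, and for bright genes such as Atp5b, near 13 where the arrays' maxima were 13.94 to 13.96, a change near the top of the scale may be compressed. In RNA from whole cultures, fewer cells of a type and less RNA per cell cannot be told apart.

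**Figure D1:**
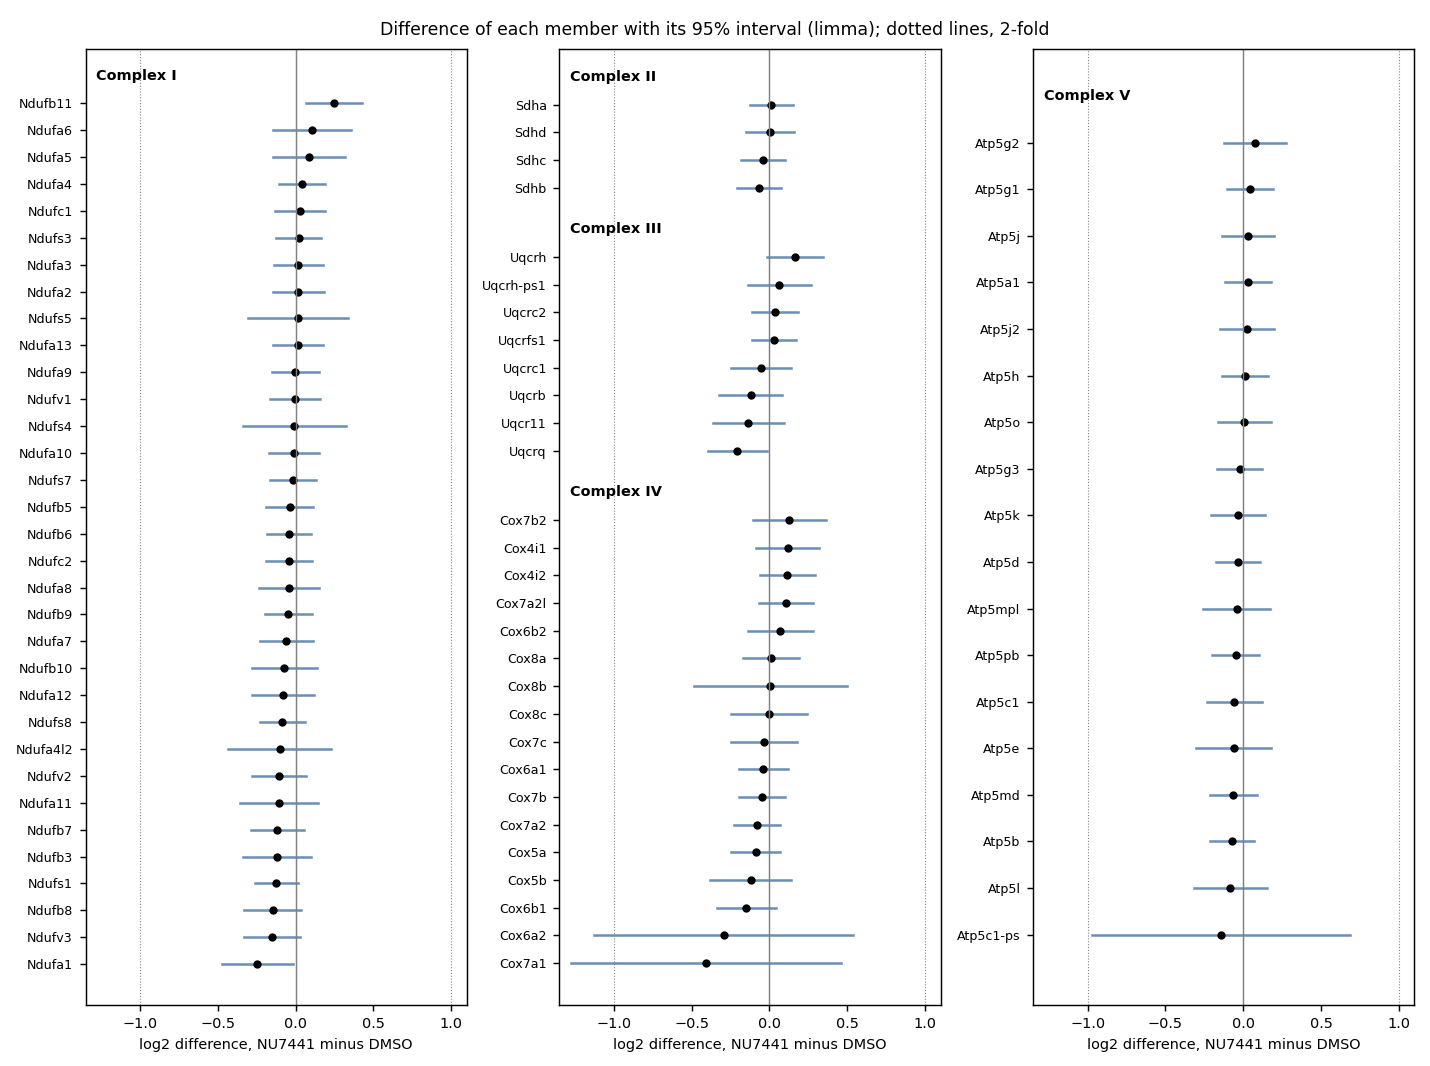
Log2 difference, NU7441 minus DMSO (x axis), of the 80 members by complex, with dots for the estimates and lines for 95% intervals from limma. Intervals stay between the dotted 2-fold lines for 78 members, and those of Cox7a1 and Cox6a2 extend past them.

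Small differences lay more often below 0 than above it. Of the members 50 were lower with NU7441 and 30 higher, 62.5% lower beside 48.7% of all genes, with a median of -0.037 beside 0.0036 over all genes. In complex I 23 of 33 were lower, with a median of -0.041, in complex II 2 of 4, with -0.018, in complex III 4 of 8, with -0.014, in complex IV 10 of 17, with -0.037, and in complex V 11 of 18, with -0.032. Among genes in the upper 50 percent by level, which hold 72 of the members, 48 of 72 members were lower, 66.7% beside 58.1% of all genes at that level, with medians of -0.041 and -0.019.

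The excess of lower values was smaller without DMSO 2, the control array in which the members were highest. In DMSO 2, 59 of 80 members, or 73.75%, were above their own mean over the 6 arrays, beside 50.6% of all genes. In each of the remaining arrays 28 to 40 members were. Without DMSO 2, 42 members were lower and 38 higher, 52.5% lower beside 48.8% of all genes, and the median was -0.0073. Because the members were highest in this control array, leaving it out reduces the excess largely by construction. With any other single array left out, 50 to 55 members were lower, or 62.5% to 68.75%. By complex, the median without DMSO 2 was -0.016 in complex I, -0.022 in complex II, 0.011 in complex III, 0.024 in complex IV and -0.013 in complex V. In complex IV 11 of 17 members were then higher. Endoplasmic reticulum stress genes moved with this array, as given above, and their part in the members' values was not tested. Scaling moved the split in both directions: centring each array on its median gave 58 of 80 lower, 72.5% beside 54.9% of all genes, and quantile normalization gave 47 of 80, 58.75% beside 48.3%, with a median of -0.013.

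**Figure D2:**
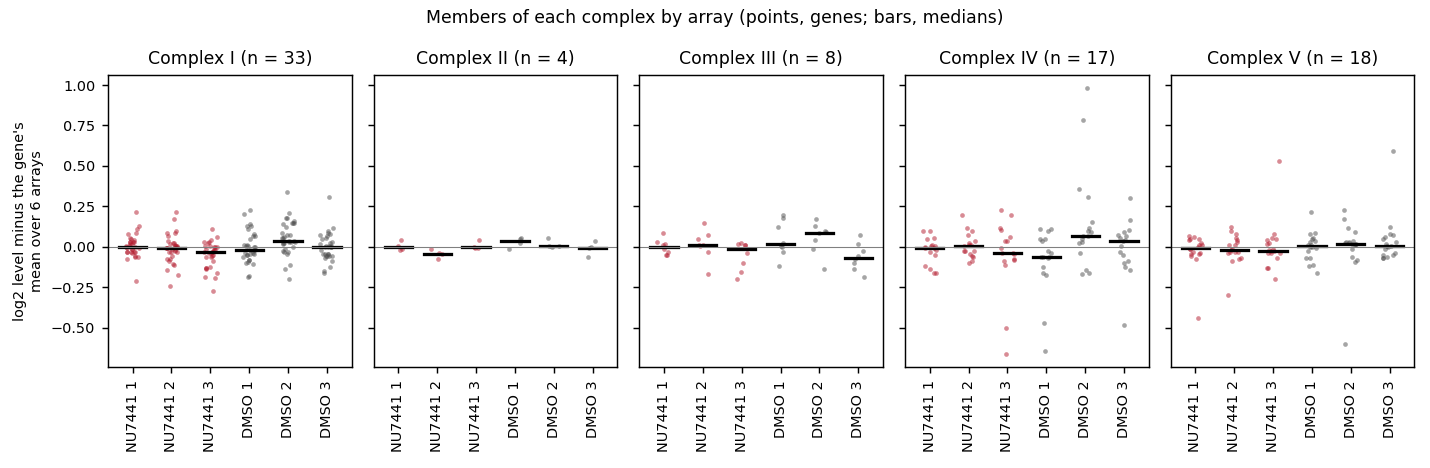
Log2 level of each member minus its mean over the 6 arrays (y axis) in each array (x axis), with red points for NU7441, grey points for DMSO and black bars for the median of the complex. The bars lie between -0.07 and 0.09 in every panel, and in complexes I, III, IV and V the highest bar is that of DMSO 2.

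Differences within same-numbered samples varied with the number. The median over members of NU7441 1 minus DMSO 1 was 0.0044, with 42 of 80 higher. In the samples numbered 2 it was -0.055, with 22 higher, and in those numbered 3 it was -0.041, with 29 higher. Only in the pair numbered 1 was the number of members above 0 larger than the number below.

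Complex I, the NADH dehydrogenase, held the member with the smallest p. Ndufb11, an accessory subunit of the membrane arm encoded on the X chromosome, was at 7.485, 7.569 and 7.376 in NU7441 1 to 3, against 7.175, 7.218 and 7.297 in DMSO 1 to 3. Every NU7441 value lay above every DMSO value, and the log2 difference was 0.25 (SE 0.08, 95% interval 0.07 to 0.43), with a limma p of 0.0140 and an adjusted p of 0.698. It was the member with the largest positive difference. Ndufa1, a small accessory subunit that is likewise encoded on the X chromosome and is needed for assembly of the complex, had a negative difference. It was at 8.78, 8.61 and 8.59 in NU7441, against 8.99, 8.99 and 8.74 in DMSO, so that 1 NU7441 value exceeded the lowest DMSO value. The log2 difference was -0.25 (SE 0.10, limma adjusted p 0.719). The estimates for these accessory subunits had opposite signs, and neither passed the threshold.

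The promoters of these accessory genes are shown because they had the smallest p of complex I. All promoters printed here were chosen after the values and matches were seen. Each sequence, from RefSeq on build GRCm38.p6, runs 5′ to 3′ on the gene's strand over 250 bases before the start and 50 after it, with matches to any of 5 motifs in capitals. The motifs were searched on both strands: GCGCANGCG for NRF1 and ATGGCGG for YY1, activators of many respiratory genes, CAAGGTCA for the estrogen-related receptors, CCGGAAGT for ETS factors such as GABPA, and ACGTG, the core of the hypoxia response element. In the Ndufb11 promoter at chrX:20617570-20617869, minus strand, none of these letters occurred. In the Ndufa1 promoter at chrX:37191189-37191488, minus strand, the capitals mark the hypoxia core and, in reverse complement, the YY1 letters.
Ndufb11: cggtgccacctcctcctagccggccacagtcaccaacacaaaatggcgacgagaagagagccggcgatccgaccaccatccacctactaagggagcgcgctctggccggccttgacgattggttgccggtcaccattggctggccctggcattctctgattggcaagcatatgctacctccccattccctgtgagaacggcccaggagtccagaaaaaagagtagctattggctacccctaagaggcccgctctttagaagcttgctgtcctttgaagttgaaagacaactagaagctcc
Ndufa1: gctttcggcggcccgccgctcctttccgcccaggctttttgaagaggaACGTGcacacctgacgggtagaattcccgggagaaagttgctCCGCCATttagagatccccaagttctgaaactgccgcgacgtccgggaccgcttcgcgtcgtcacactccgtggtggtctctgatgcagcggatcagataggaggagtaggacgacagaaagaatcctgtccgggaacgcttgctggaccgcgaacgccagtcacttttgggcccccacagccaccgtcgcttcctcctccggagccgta

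The core subunits of complex I, most of which carry its redox centres, had differences between -0.12 and 0.020. Ndufs1, the largest iron-sulfur subunit, was at 9.26, 9.25 and 9.27 in NU7441, against 9.40, 9.35 and 9.40 in DMSO. The groups did not overlap, the spread within each was small (SD 0.010 in NU7441 and 0.029 in DMSO), and the difference was -0.12 (SE 0.06, limma adjusted p 0.762). Ndufs8, another iron-sulfur subunit, was at 10.85, 10.89 and 10.87 in NU7441, against 10.92, 10.94 and 11.01 in DMSO, again without overlap, with a difference of -0.087 (SE 0.06, limma adjusted p 0.830). The iron-sulfur subunit Ndufv2 differed by -0.11 (SE 0.07), Ndufs7, which sits next to the quinone site, by -0.016 (SE 0.06), and Ndufs3 by 0.020 (SE 0.06). Ndufv1, which binds NADH and the flavin, differed by -0.0045 (SE 0.07, 95% interval -0.16 to 0.15). Of these 6 core members 5 were lower and none passed the test. Ndufv3, an accessory subunit, was at 9.02, 8.98 and 8.93 in NU7441 and 9.18, 9.20 and 9.01 in DMSO, a difference of -0.15 (SE 0.08). The remaining 24 members of complex I had differences between -0.15, for Ndufb8, and 0.11, for Ndufa6.

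Complex II, the succinate dehydrogenase, links the chain to the tricarboxylic acid cycle and had the smallest spread over arrays of the 5 complexes: the median range of its members over the 6 arrays was 0.099, beside 0.21 over all members. Sdha, the flavoprotein that oxidises succinate, was at 11.054, 10.997 and 11.005 in NU7441 and 10.999, 11.017 and 11.003 in DMSO, a difference of 0.012 (SE 0.06). Sdhb, the iron-sulfur subunit, was at 9.12, 9.06 and 9.13 in NU7441 and 9.19, 9.19 and 9.14 in DMSO, a difference of -0.067 (SE 0.06, limma adjusted p 0.862). Sdhc, a membrane anchor, was at 10.14, 10.10 and 10.15 in NU7441 and 10.17, 10.15 and 10.18 in DMSO, a difference of -0.042 (SE 0.06, limma adjusted p 0.913). In Sdhb and Sdhc the groups did not overlap, by gaps that were under the standard error. The other anchor, Sdhd, differed by 0.0053 (SE 0.07). Each of the 4 intervals excluded a change of 1.2-fold.

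The promoter of Sdhd is shown as 1 of 4 members whose windows held both the NRF1 letters and those of the estrogen-related receptors, the others being Atp5g3, Atp5l and Ndufs5. It lies at chr9:50603800-50604099, minus strand, with both motifs in capitals and the receptor letters in reverse complement after the start.
Sdhd: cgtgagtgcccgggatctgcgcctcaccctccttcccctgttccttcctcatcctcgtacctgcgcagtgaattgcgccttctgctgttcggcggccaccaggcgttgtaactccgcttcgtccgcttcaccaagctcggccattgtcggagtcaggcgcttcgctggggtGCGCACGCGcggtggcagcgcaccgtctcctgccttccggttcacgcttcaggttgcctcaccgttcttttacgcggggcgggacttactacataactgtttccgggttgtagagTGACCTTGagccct

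In complex III, the cytochrome bc1 complex, the member with the smallest p was a small subunit. Uqcrq, which binds ubiquinone together with cytochrome b, was at 7.94, 7.75 and 7.76 in NU7441 and 8.04, 8.09 and 7.93 in DMSO. The highest NU7441 value was level with the lowest DMSO value, and the difference was -0.21 (SE 0.08, limma adjusted p 0.719). Uqcrh, the hinge protein at the docking site of cytochrome c1 and c, was at 9.10, 9.17 and 9.03 in NU7441 and 9.04, 8.88 and 8.88 in DMSO, a difference of 0.16 (SE 0.08, limma adjusted p 0.762). Uqcr11 differed by -0.14 (SE 0.10) and Uqcrb by -0.12 (SE 0.09). The small subunits therefore did not share a direction, and none passed. Uqcrfs1, the Rieske iron-sulfur protein, was at 7.59 ± 0.04 in NU7441 and 7.56 ± 0.01 in DMSO (SD, n = 3 each), a difference of 0.027 (SE 0.06). The core proteins Uqcrc1 and Uqcrc2, which hold no redox centre, differed by -0.054 (SE 0.08) and 0.036 (SE 0.06). The pseudogene Uqcrh-ps1 was dim, between 4.64 and 4.92 in all arrays, and may share sequence with Uqcrh.

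**Figure D3:**
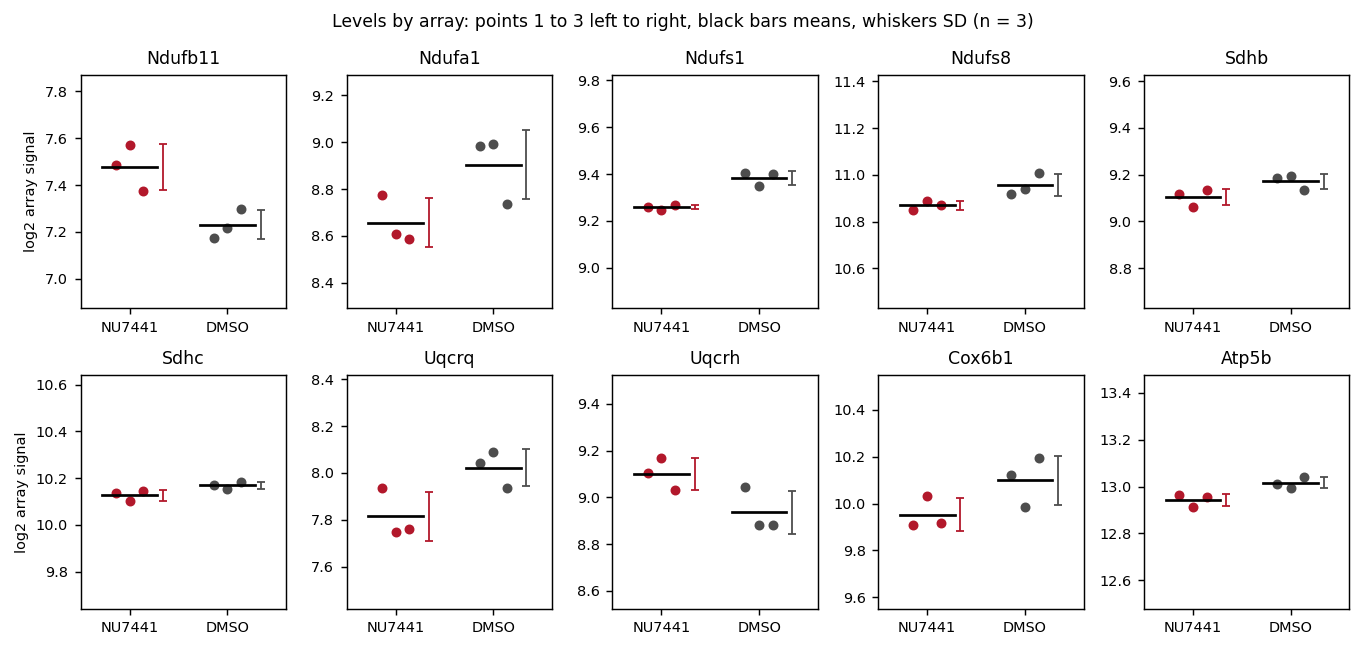
Log2 array signal (y axis) of 10 members in NU7441 (red) and DMSO (grey), with a point for each array, black bars for means and whiskers for the SD (n = 3 each). Groups do not overlap in Ndufb11, Ndufs1, Ndufs8, Sdhb, Sdhc and Atp5b, of which only Ndufb11 is higher with NU7441. The genes were chosen after their values were seen, and every y axis spans at least 1 log2 unit.

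Complex IV, cytochrome c oxidase, surrounds its mitochondrially encoded core with small nuclear subunits, several of which come as a common and a tissue-restricted isoform. Among the common ones Cox6b1, at the cytochrome c side, was at 9.91, 10.03 and 9.91 in NU7441 and 10.12, 9.99 and 10.19 in DMSO. The groups overlapped through DMSO 2, and the difference was -0.15 (SE 0.08, limma adjusted p 0.778). Cox4i1, the common form of the subunit through which ATP regulates the enzyme, was at 10.36 ± 0.05 in NU7441 and 10.25 ± 0.14 in DMSO, a difference of 0.12 (SE 0.09). Without DMSO 2 the differences of Cox6b1 and Cox4i1 were larger, at -0.20 and 0.19. Cox5a differed by -0.089 (SE 0.07) and Cox5b by -0.12 (SE 0.11). Cox5b was at 10.75, 10.72 and 10.70 in NU7441, against 10.75, 11.09 and 10.69 in DMSO, so that DMSO 2 alone stood above the rest, and without DMSO 2 its difference was 0.0039. Cox6a1, Cox7a2, Cox7b and Cox8a differed by -0.039, -0.081, -0.049 and 0.0092, each with an SE between 0.06 and 0.08. Cox7a2l, which joins complexes III and IV into supercomplexes and is not a subunit of the enzyme alone, differed by 0.11 (SE 0.07). None of the 17 members had an unadjusted limma p under 0.05 in the unpaired fit of the brightest probe sets. In the paired fit named above 1 had, as with probe sets averaged and without DMSO 1. Without DMSO 2 there were 2, beside 1359 of all 22180 genes.

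Among isoforms typical of heart and skeletal muscle, Cox7a1 and Cox6a2 had the widest ranges of all members, with wide spread between samples of the same group. Cox7a1 was at 7.12, 7.22 and 6.48 in NU7441 1 to 3, against 7.26, 8.13 and 6.66 in DMSO 1 to 3. Cox6a2 was at 7.075, 7.412 and 6.714 in NU7441, against 6.571, 7.999 and 7.514 in DMSO. Cox8b was at 5.88, 6.02 and 6.24 in NU7441, against 5.57, 6.40 and 6.15 in DMSO. In each of the 3 genes DMSO 2 was the highest array. Their ranges over the 6 arrays were 1.65, 1.43 and 0.83, beside a median range of 0.21 over all members. The differences were -0.41 (SE 0.37), -0.29 (SE 0.35) and 0.0067 (SE 0.21), with limma adjusted p between 0.859 and 0.996. Without DMSO 2 the Cox6a2 difference was 0.025 and that of Cox7a1 -0.017. Within samples numbered 1 to 3, Cox7a1 differed by -0.13, -0.91 and -0.18, and Cox6a2 by 0.50, -0.59 and -0.80. A fit with the sample number as a block gave Cox7a1, Cox6a2 and Cox8b an SE of 0.17, 0.26 and 0.14. Their limma adjusted p there was between 0.552 and 0.992. Of 5 markers of skeletal muscle, 2 were above their own mean over the 6 arrays in DMSO 2, and the median deviation of the list there was -0.13.

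The oxygen-responsive isoforms were read as well, because cytochrome c oxidase exchanges Cox4i1 for Cox4i2 in low oxygen and Ndufa4l2 is a target of the hypoxia-inducible factor. Cox4i2 was at 6.85, 6.97 and 6.92 in NU7441 and 6.79, 6.71 and 6.89 in DMSO, a difference of 0.11 (SE 0.07), near that of Cox4i1. Ndufa4l2 was at 7.53, 7.76 and 7.77 in NU7441 and 7.71, 8.08 and 7.58 in DMSO, a difference of -0.10 (SE 0.14), and without DMSO 2 the difference was 0.041. Its relative Ndufa4, which is named for complex I but has been found in complex IV, differed by 0.040 (SE 0.06). The isoforms of testis, Cox6b2, Cox7b2 and Cox8c, differed by 0.070 (SE 0.09), 0.13 (SE 0.10) and -0.0035 (SE 0.10). Cox7b2, between 3.37 and 3.76, lay under the lower quartile of all arrays.

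**Figure D4:**
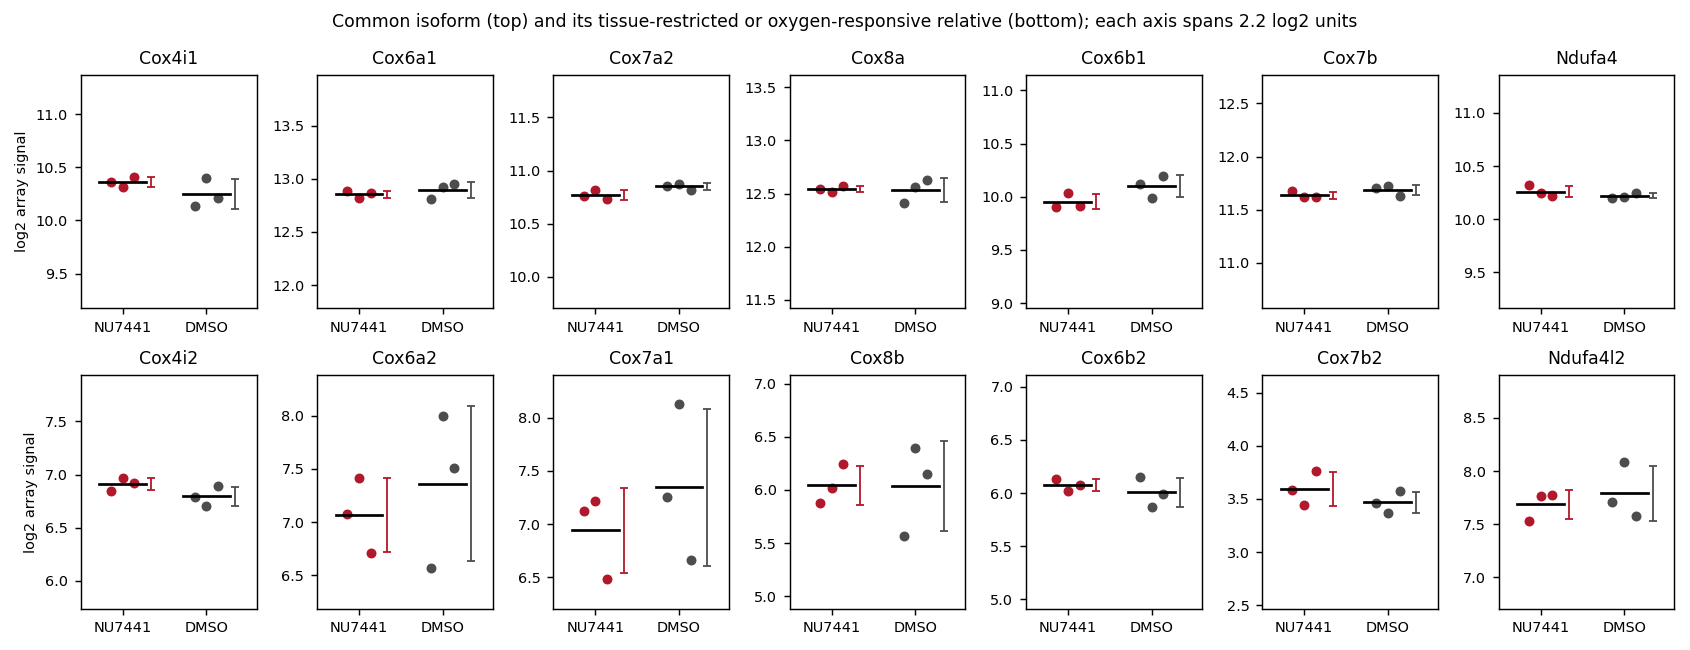
Log2 array signal (y axis, 2.2 units in each panel) of 7 common subunits (top) and their tissue-restricted or oxygen-responsive relatives (bottom) in NU7441 (red) and DMSO (grey), with points for arrays 1 to 3, bars for means and whiskers for SD. The spread is widest in Cox7a1 and Cox6a2, where DMSO 2, the middle grey point, is highest.

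The promoters of the muscle isoform Cox7a1 and the common isoform Cox7a2 are set side by side because the expression of one varied widely between samples and that of the other did not. Cox7a1, at chr7:30183921-30184220 on the plus strand, held the hypoxia core in reverse complement, and Cox7a2, at chr9:79759804-79760103 on the minus strand, held none of the motifs. That core occurred in 26.6% of the members with a promoter and 23.2% of protein coding genes. Whether it bears on the spread between samples was not tested.
Cox7a1: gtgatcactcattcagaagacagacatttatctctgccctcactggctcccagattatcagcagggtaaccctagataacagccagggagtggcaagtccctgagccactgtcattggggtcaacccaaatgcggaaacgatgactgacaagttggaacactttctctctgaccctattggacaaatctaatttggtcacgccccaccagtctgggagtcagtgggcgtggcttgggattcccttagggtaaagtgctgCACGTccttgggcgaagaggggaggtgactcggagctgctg
Cox7a2: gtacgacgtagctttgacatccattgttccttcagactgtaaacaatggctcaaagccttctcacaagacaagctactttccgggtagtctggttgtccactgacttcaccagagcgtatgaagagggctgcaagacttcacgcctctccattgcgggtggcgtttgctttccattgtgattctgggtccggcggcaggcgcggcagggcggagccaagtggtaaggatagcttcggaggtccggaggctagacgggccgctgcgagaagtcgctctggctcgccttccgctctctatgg

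Complex V, the ATP synthase, had 11 of 18 members lower and none past the test. Atp5b, the catalytic beta subunit, was at 12.96, 12.91 and 12.95 in NU7441 and 13.01, 12.99 and 13.04 in DMSO. The groups did not overlap, and the difference was -0.073 (SE 0.06, limma adjusted p 0.842). Its partner in the catalytic ring, Atp5a1, was at 11.53 ± 0.04 in NU7441 and 11.50 ± 0.03 in DMSO, a difference of 0.029 (SE 0.06). Atp5c1, the gamma subunit of the rotating stalk, differed by -0.057 (SE 0.07). The genes Atp5g1, Atp5g2 and Atp5g3 encode the same mature subunit c of the rotor ring and differ in the part that is removed on import. They differed by 0.043 (SE 0.06), 0.077 (SE 0.09) and -0.024 (SE 0.06), each within its standard error of 0. Of the membrane subunits, Atp5l differed by -0.083 (SE 0.10) and Atp5md by -0.064 (SE 0.06). The pseudogene Atp5c1-ps ranged from 3.95 to 5.14, with a wide interval, and may share sequence with Atp5c1. No member of complex V had an unadjusted limma p under 0.05 in the unpaired fit, and 1 had in the paired fit named above.

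A second probe set was present for 9 members and gave a check within the same RNA. Both probe sets lay on the same side of 0 in 5 of the 9. The dimmer probe set of Cox7b was at 6.62, 6.47 and 6.71 in NU7441, against 6.22, 6.16 and 6.01 in DMSO, without overlap, a difference of 0.47 (SE 0.09), where the brighter one gave -0.049 (SE 0.06). A fit of all 23521 single-symbol probe sets was added after the data were examined, and it called 0 probe sets. There the dimmer Cox7b probe set had an unadjusted limma p of 0.0013 and an adjusted limma p of 0.581. For Cox5b the dimmer probe set gave 0.23 (SE 0.12) and the brighter -0.12. Which transcript each probe set reads was not analysed here. The direction of Cox7b and Cox5b thus depended on the probe set.

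None of the genes listed as partners of the complexes passed the test in limma. The splits below stand beside 48.7% of all genes lower, or 58.1% in the upper 50 percent by level. Cycs, the cytochrome c that carries electrons from complex III to IV, was at 10.43, 10.43 and 10.42 in NU7441, against 10.62, 10.60 and 10.63 in DMSO. All DMSO values lay above all NU7441 values with an SD of 0.0049 in NU7441 and 0.014 in DMSO, and the difference was -0.19 (SE 0.06, limma p 0.0127, adjusted p 0.698). Cyc1, the cytochrome c1 of complex III that the symbol rule does not reach, was at 10.10, 10.13 and 10.08 in NU7441, against 10.19, 10.29 and 10.21 in DMSO, a difference of -0.13 (SE 0.06, limma adjusted p 0.762). Cyct, the testis form, differed by 0.16 (SE 0.10) at a dim signal near 5. Cycs and Cyc1 were therefore lower in each of the 3 NU7441 arrays than in any DMSO array, short of the threshold. They were named for their small p, and groups did not overlap in 12.8% of all genes. Of the 5 subunits outside the symbol rule, 4 were lower (median -0.087), and 3 without DMSO 2 (median -0.036).

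Of 18 assembly factors of complex I, 11 were lower and 7 higher (median -0.054, and -0.018 with the same split without DMSO 2), and the smallest p belonged to Ecsit, at -0.16 (SE 0.07), Ndufaf5, at -0.14 (SE 0.08), and Nubpl, at -0.17 (SE 0.10). Of 31 assembly factors of complexes II to V, 22 were lower and 9 higher (median -0.036). Without DMSO 2, in which 28 of the 31 lay above their own mean, 16 were lower and 15 higher (median -0.0055). Uqcc2, which is needed to make cytochrome b, was at 10.76, 10.75 and 10.72 in NU7441, against 10.94, 10.95 and 10.87 in DMSO, a difference of -0.18 (SE 0.06, limma adjusted p 0.699). Lyrm7, which helps insert the Rieske protein, differed by -0.19 (SE 0.09), and Coa7, of complex IV, by -0.15 (SE 0.07). Of the 10 mitochondrially encoded subunits measured, 8 were lower and 2 higher (median -0.016), and 6 and 4 without DMSO 2 (median -0.0021). The smallest p belonged to ND3, at -0.064 (SE 0.06), COX3, at -0.062 (SE 0.06), and ND2, at -0.060 (SE 0.06). These transcripts were between 13.13 and 13.71 in group means except ND6, near the arrays' maxima.

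Regulators of mitochondrial biogenesis were lower in 16 of 18 cases, with a median of -0.065 and 0 passing. Without DMSO 2, 15 of 18 were lower, with a median of -0.042. Tfam, which packages and transcribes the mitochondrial genome, was at 8.41, 8.35 and 8.43 in NU7441, against 8.57, 8.67 and 8.50 in DMSO, a difference of -0.19 (SE 0.07, limma adjusted p 0.717). Lrpprc, which stabilises mitochondrial messenger RNA, was at 9.40, 9.45 and 9.36 in NU7441, against 9.50, 9.65 and 9.63 in DMSO, a difference of -0.19 (SE 0.07, limma adjusted p 0.715). Gabpa, a transcription factor of respiratory genes, differed by -0.12 (SE 0.07). Among the 18 the groups did not overlap in these 3, which were chosen for the smallest p, beside 12.8% of all genes. Enzymes of the tricarboxylic acid cycle were lower in 11 of 13 cases, with a median of -0.044 (9 of 13 and -0.014 without DMSO 2), led by Suclg1 at -0.13 (SE 0.07), Dld at -0.13 (SE 0.07) and Idh3a at -0.098 (SE 0.07). As with the members, DMSO 2 had the highest median of both lists, 0.13 for the regulators and 0.050 for the cycle enzymes.

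Oxygen-response genes tied to mitochondria had a lower median than the subunits, and none passed the test over all genes. Of 11 genes 8 were lower, with a median of -0.26, and 5, or 45.5%, had an unadjusted limma p under 0.05, beside 6.79% of all genes. Without DMSO 2 the counts were the same and the median was -0.14. The list was chosen with earlier results of these data known, so these counts are a description and no independent support. Egln1, the oxygen sensor that marks the hypoxia-inducible factor for destruction, was at 10.45, 10.55 and 10.43 in NU7441, against 11.01, 10.87 and 10.80 in DMSO, a difference of -0.42 (SE 0.08, limma adjusted p 0.598). It was called in the paired fit with a trend and robust prior (limma adjusted p 0.0264), as was Egln3, a related oxygen sensor with a difference of -0.69 (SE 0.36, limma adjusted p 0.0268 in that fit and 0.768 without pairing). Higd1a, a small protein that binds complex IV in low oxygen, was at 8.41, 8.40 and 8.46 in NU7441, against 8.93, 8.72 and 8.61 in DMSO, a difference of -0.33 (SE 0.09, limma adjusted p 0.679). Pdk1, which keeps pyruvate from the mitochondrial cycle, was at 8.92, 8.75 and 9.11 in NU7441, against 9.36, 9.15 and 9.21 in DMSO, a difference of -0.31 (SE 0.11). Against the genes' means, the list's median was between -0.14 and 0.00064 in NU7441 and between 0.03 and 0.17 in DMSO, and here DMSO 1 was the highest array.

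**Figure D5:**
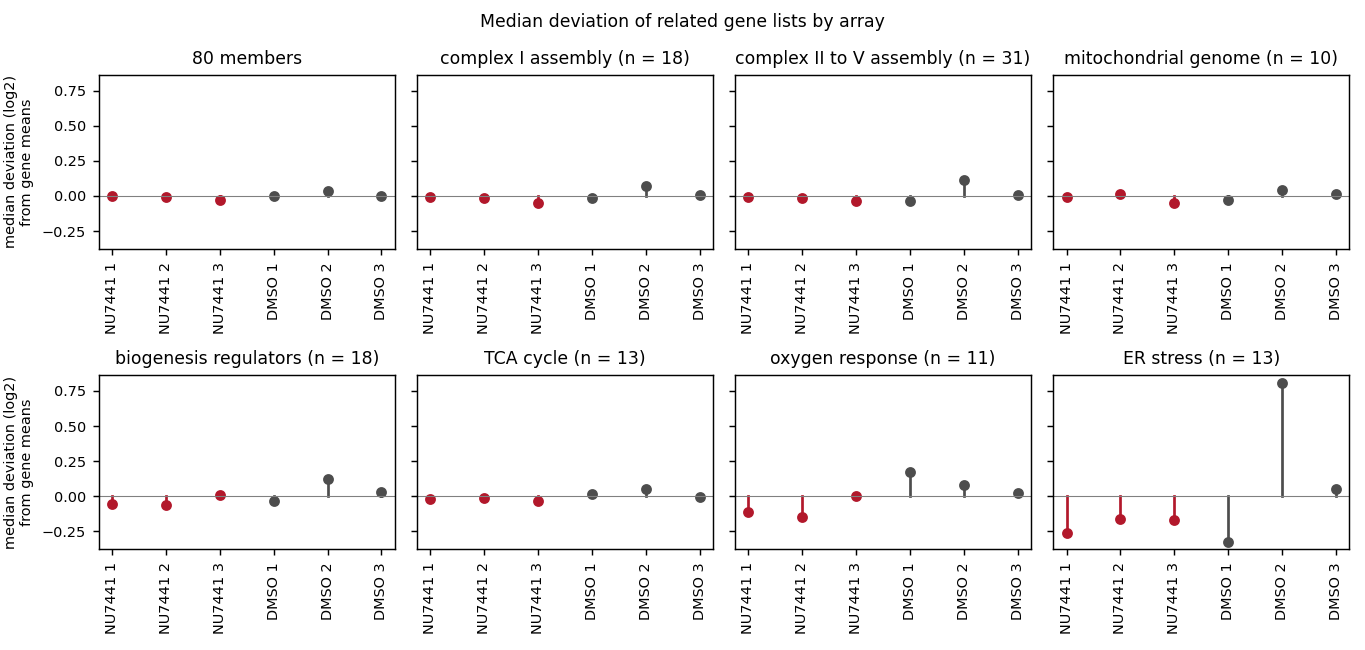
Median over the genes of each list of the log2 level minus the gene's mean over 6 arrays (y axis), for each array (x axis; red, NU7441; grey, DMSO). The 80 members stay between -0.03 and 0.03, the oxygen-response genes lie higher in the DMSO arrays, and the endoplasmic reticulum stress genes reach 0.81 in DMSO 2.

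The promoters of 64 of the 80 members were in the RefSeq table. The NRF1 letters occurred in 18 of these 64, or 28.1%, beside 9.63% of 17491 protein coding genes and 7.03% of all 27025 genes with a promoter of this length. By complex they occurred in 6 of 29 in complex I, 2 of 3 in complex II, 2 of 4 in complex III, 1 of 13 in complex IV and 7 of 15 in complex V. The YY1 letters occurred in 9 of 64, or 14.1%, beside 6.05% of protein coding genes, 7 of the 9 being in complex I. The letters of the estrogen-related receptors were in 6.25% and those of ETS factors in 7.81%, beside 1.56% and 5.69% of protein coding genes. The hypoxia core was in 26.6%, beside 23.2%. Median GC content was 57.3% in the members' promoters and 52.7% in all promoters, and its part in these shares was not tested.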

How the data were processed

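RNA of 6 MC3T3-E1 samples, 3 with NU7441 and 3 with DMSO by their labels, was read on Affymetrix arrays. The deposited table holds 1 log2 value for each of 41345 probe sets and array. That the authors deposited log2 values was read from their range. How they were background-corrected and normalized is not given in the sources used here. Platform annotation gave 1 symbol for 23521 probe sets, and the brightest probe set of each gene by its mean over the 6 arrays was kept, leaving 22180 genes with no filter on level. Arrays have no read depth, and their number limits the precision.

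The test was limma, version 3.58.1, under R version 4.3.3 (group as the only term, two-sided, Benjamini-Hochberg over all genes, threshold 0.05), tested on simulated data first. Members and lists were chosen with earlier results of these data known. Named were, per complex, the 4 members with the smallest p, core subunits, isoform pairs, the extremes and, per list, the 3 genes with the smallest p. Uqcrh-ps1, Atp5c1-ps, Ndufb8, Ndufa6, Ndufs5, ND6, Col1a1, Sparc, Ibsp, Egln3, Ptprc and Csf1r were named after their values were seen. The lists were subunits outside the symbol rule, assembly factors of complex I and of complexes II to V, mitochondrially encoded subunits, biogenesis regulators, tricarboxylic acid cycle, oxygen response, endoplasmic reticulum stress, and markers of osteoblasts, macrophages, endothelium, muscle and adipocytes.

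Deviations from group means correlated between same-numbered samples at 0.149 to 0.339 and between others at -0.246 to 0.094. Each same-numbered value was over 0.1, which was taken as a sign of pairing. Deviations within a group sum to 0, so higher values for some sample pairs force lower ones for others. The labels themselves give no pairing, so the unpaired fit stayed the main test and paired fits were alternatives. Members at an unadjusted limma p under 0.05 were 3 in the unpaired fit and 3 with the replicate block. They were 11 with the block, trend and robust prior. Each SE, interval and p-value above is from an unpaired fit unless a paired or block fit is named. Alternatives were the replicate block, an intensity trend with robust prior, both together, quantile normalization, median centring, keeping the upper 75 or 50 percent of genes, averaging a gene's probe sets, weighting arrays, Ndufa4 and Ndufa4l2 moved to complex IV, and omitting 1 array at a time.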

Additional observations from a re-analysis of the deposited data

How the results depend on the processing

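No member was called in any of the 15 alternatives, and over all genes 0 were called in 14 of them, the replicate block alone included, which called 0 and changed no member's call. The replicate block with a trend and robust prior called 100 genes, among them Egln1 (-0.42), Alpl (0.54), Sp7 (0.53) and Fabp4 (-0.99). The complex medians moved by more than their spread between arrays as follows. With quantile normalization they were -0.012 in complex I, 0.011 in complex II and -0.0058 in complex V. In complex V, median centring gave -0.049 and array weights -0.016. Leaving out 1 array gave medians from -0.050 to -0.016 in complex I, from -0.078 to 0.024 in complex IV and from -0.034 to -0.0098 in complex V, and the value without DMSO 2 was the upper end in complexes I and IV. Of 85 named genes 70 kept their sign in every setting. Signs turned with the mean of probe sets in Cox5b (0.055) and Cox7b (0.21), and in their second probe sets alone (0.23 and 0.47). With median centring they turned in Cox8a (-0.0081), Cox8b (-0.011), Sdha (-0.0052) and Sdhd (-0.012), with array weights in Cox8a (-0.00014), and with quantile normalization in Cox8b (-0.023), Ndufs7 (0.0036) and Ndufv1 (0.019). With 1 array left out the range crossed 0 in Cox5b (-0.20 to 0.0039), Cox6a2 (-0.69 to 0.025), Cox8a (-0.052 to 0.056), Cox8b (-0.23 to 0.19), Cox8c (-0.085 to 0.075), Ndufa4l2 (-0.21 to 0.041), Ndufs7 (-0.047 to 0.0073), Ndufv1 (-0.028 to 0.036), Sdha (-0.0056 to 0.023), Sdhd (-0.024 to 0.034), Adgre1 (-0.13 to 0.026), Itgam (-0.11 to 0.023), Kdr (-0.16 to 0.016) and Lep (-0.015 to 0.21). Counting Ndufa4 and Ndufa4l2 with complex IV moved neither median beyond its spread. The cause of these shifts was not tested.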

Other observations

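Members whose promoter window held the NRF1 letters and those without them are set side by side. The 18 with the letters had a median log2 difference of -0.028, with 10 lower and 8 higher with NU7441, and the 46 without them a median of -0.037, with 30 lower and 16 higher. For the YY1 letters the medians were -0.016 in 9 members with them and -0.037 in 55 without, and for the hypoxia core -0.050 in 17 and -0.032 in 47. For the letters of ETS factors the median was 0.012 in 5 members, 4 of them higher, and -0.038 in 59 without. For those of the estrogen-related receptors it was -0.0092 in 4 members and -0.037 in 60 without. These are descriptions over members, not a test.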
